A study of Mus musculus with 6 samples.

Results

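Mitotic genes were compared between 2 preparations from newborn CD1 mice that are labelled as germline stem cells. Spermatogonial stem cells (SSC) came from testes of mice aged 6 days, and female germline stem cells (FGSC) from ovaries of mice aged 3 days. Each preparation has 3 arrays of the type Illumina Mouse WG-6 v2.0, and organ, sex and age differ together, so their effects cannot be told apart. The sources used here give neither the enrichment or culture of the cells nor whether the replicates are separate isolations, so every p-value reflects array-to-array spread that may be technical. The genes were chosen by name, as kinesins with a number after Kif, centromere proteins with a Cenp symbol, Ska1 to Ska3 and 18 named regulators of mitosis. The array carried 165 probes for 73 such genes, and 58 of the 73 had a probe detected at 0.05 on at least 3 of the 6 arrays, out of 10628 genes tested on the array as a whole.

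In mitosis, kinesins walk along or shorten microtubules to build the spindle, and the centromere assembles a kinetochore on each chromosome to which those microtubules attach. The spindle checkpoint holds the cell in metaphase until all kinetochores are attached, and then the ubiquitin ligase APC/C, activated by Cdc20, lets the chromosomes separate. Spermatogonia divide by mitosis throughout life, whereas most germ cells of the newborn ovary are oocytes arrested in the prophase of meiosis. Oocytes store messages for their later meiotic divisions. Many named kinesins do other work, carrying cargo in axons and cilia, and these are described separately.

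The arrays detected between 16198 and 18823 of 45281 probes, with fewer on the FGSC arrays than on the SSC arrays. Across genes, themselves no independent replicates, correlations were 0.986 to 0.994 between SSC arrays, 0.956 to 0.994 between FGSC arrays and 0.771 to 0.818 between groups. FGSC replicate 3 stood furthest from its group, and 4 of the 97 kept mitotic probes read at least 1 log2 unit lower there than the mean of FGSC replicates 1 and 2, while 1 read at least that much higher. None of these 5 probes was the brightest of its gene, but that array read low on the brightest probes of some further mitosis genes described below. Markers of the labelled cell types were examined. All 7 oocyte genes tested were higher in FGSC, with normalised intensities that summed to 22200 to 23700 against 211 to 223 in SSC. Padi6 was detected on no SSC array and passed the filter through FGSC alone. The FGSC sum came mostly from Nlrp5 and Padi6, with mean log2 levels there of 13.58 and 13.11, against 7.23 for Ooep and 6.70 for Nobox. These 7 genes mark oocytes and not stem cells, so the name FGSC is kept only as labelled. The number of oocytes in the FGSC samples was not tested. Of 7 spermatogonial genes, 6 were lower in FGSC, with sums of 537 to 571 against 2330 to 2710, and Gfra1, a defining receptor, was detected on no array. Among the 6, Egr4 and Lhx1 were detected on no FGSC array and passed the filter through SSC alone. Markers of germ cells of both sexes summed to 8850 to 10100 in FGSC and 1120 to 1360 in SSC, with Dppa3 higher (8.18 ± 0.11), Ddx4 lower (-0.55 ± 0.09), Dazl not called (-0.54 ± 0.25) and Mael detected on no array. This FGSC sum came mostly from Dppa3, with a mean log2 level of 13.10 against 8.90 for Dazl and 8.34 for Ddx4. The Ddx4 probe was among 20 on the array with a raw signal written in 9 or more digits. Granulosa markers summed to 273 to 340 in FGSC and 425 to 472 in SSC, with 1 higher and 3 lower of 6 tested and Fshr undetected in FGSC. Sertoli markers summed to 144 to 211 against 582 to 631, with 1 higher and 2 lower of 4 tested, and Amh and Dhh were undetected in FGSC. Leydig and theca markers summed to 106 to 109 against 302 to 352, with 3 of 4 lower and all 4 undetected in FGSC. Sums for smooth muscle were 185 to 206 in FGSC against 250 to 365, for endothelium 119 to 121 against 191 to 199 and for blood 853 to 1310 against 2020 to 2100. Of 3 smooth muscle genes 2 were lower, with Tagln undetected in FGSC, and Acta2 was not called (0.08 ± 0.29). Of 4 endothelial genes only Cdh5 was lower, and it was undetected in FGSC. Kdr (0.17 ± 0.08), Pecam1 (0.09 ± 0.08) and Tek (-0.16 ± 0.11) were not called. Fshr, Amh, Dhh, Tagln, Cdh5 and the 4 Leydig and theca genes also passed the filter through SSC alone. Their FGSC signals are background, and their differences are bounds. These were at least 1.14-fold for Star and 1.08-fold for Tagln, but 12.9-fold for Amh. Of the 2 blood genes tested, Hba-a1 was lower (-1.17 ± 0.11) and Hbb-bt was not called (0.60 ± 0.38). The proliferation genes Mcm2 and Mcm5 summed to 1500 to 1940 in FGSC and 1640 to 1950 in SSC, with Mcm2 called higher (1.03 ± 0.21) and Mcm5 not called (-0.10 ± 0.12). The part of these other cell types in the mitotic differences was not tested, and in such bulk samples fewer cells of a type and less RNA per cell cannot be told apart.

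The mitotic genes did not move as a block. Of the 58 tested, 23 were higher in FGSC, 16 were lower and 19 were not called at an adjusted p under 0.05, which is 67.2% called against 62.4% of all genes. The share called higher was 39.7%, against 30.9% of all genes, and the share called lower was 27.6%, against 31.5%. The median difference, FGSC minus SSC on the log2 scale, was 0.17 for the 58 genes and 0.00 for all genes. Values of the groups did not overlap for 40 of the 58 (69.0%), against 70.9% of all genes. Differences of at least 1 either way were called for 15 members (25.9%), against 26.6% of all genes. These shares lay near those of the array as a whole, which is not a result about the mitotic genes. Detection on 3 arrays can favour genes that are high in 1 group, but 57 of the 58 were detected on at least 1 array of each group, and among the 48 detected on all 6 arrays 21 were higher (43.8%) and 14 lower (29.2%), where 63.7% of all such genes were called, 34.4% higher and 29.3% lower. With median scaling in place of quantile normalization, which moved the median of all genes to -0.12, the count was 14 higher and 13 lower, and for all genes 1929 higher and 3002 lower.

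**Figure D1:**
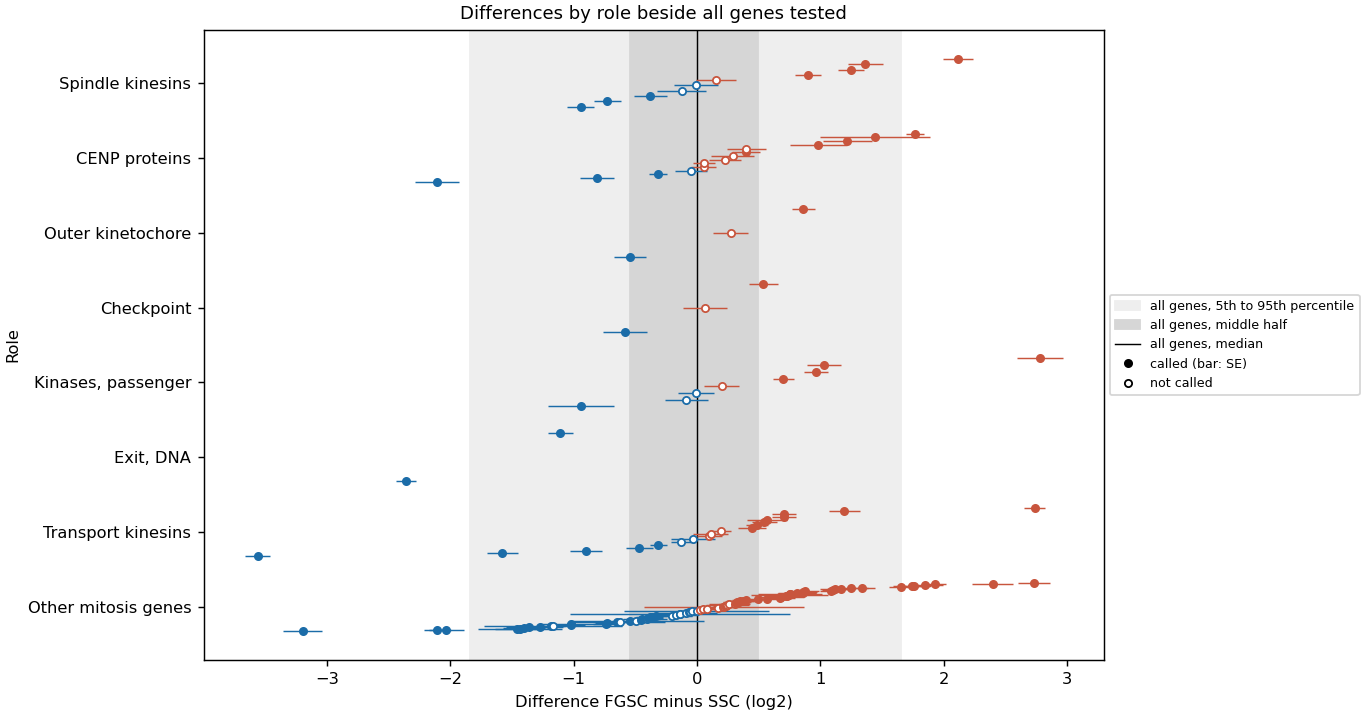
Differences between FGSC and SSC (horizontal axis, log2) for each gene, grouped by role on the vertical axis. Filled points were called at an adjusted p under 0.05 and open points were not, bars are the standard error of the fit, colour gives the sign, the bottom row holds the other mitosis genes, and the grey bands are the percentile ranges of all 10628 genes given in the legend. Most roles hold genes on both sides of 0, from Kif1a at -3.56 to Birc5 at 2.78, while both genes of exit and chromosome structure lie below 0.

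Below, levels are normalised log2 signals, a difference is FGSC minus SSC with the standard error (SE) of the limma fit, and adjusted p-values are from limma with Benjamini-Hochberg adjustment over all genes. A signal includes an added offset of 16, which shrinks the differences of dim genes. The lowest signals of detected probes lay between 4.72 and 4.89, so values near 5 are close to background. Signals are compared between groups for a given probe and not between genes. Roles hold few genes, so counts by role are descriptions, and no role was tested as a set. Each such count is to be read beside the 30.9% of all genes called higher and the 31.5% called lower.

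Among the spindle and chromosome kinesins, 4 of 10 genes tested were higher in FGSC, 3 were lower and 3 were not called. Kif4, a chromosome-bound kinesin that also shapes the spindle midzone, gave 7.88, 7.88 and 7.72 on the SSC arrays and 9.79, 10.17 and 9.87 on the FGSC arrays. The groups lay far apart, and the difference was 2.11 ± 0.12 (SE, 3 against 3 arrays, adjusted p = 1.42e-05), a 4.33-fold higher signal. Its other kept probes gave 2.26 and 1.64, and all 3 were called. Kif22, a chromokinesin that pushes chromosome arms towards the spindle equator, read 9.29, 9.33 and 9.35 in SSC and 10.37, 10.64 and 10.70 in FGSC. It rose by 1.25 ± 0.10 (adjusted p = 7.76e-05), with all FGSC arrays above all SSC arrays. Kif2c, the microtubule depolymerase that corrects faulty attachments at centromeres, read 8.65, 8.58 and 8.47 in SSC and 9.29, 9.50 and 9.61 in FGSC. Its difference was 0.90 ± 0.11 (adjusted p = 0.000414), again with no overlap. Kif24, a centriolar kinesin that restrains cilia, was counted with the spindle kinesins and not with the ciliary ones. Its readings were 5.45, 5.60 and 5.09 in SSC and 6.70, 6.85 and 6.68 in FGSC. It rose by 1.36 ± 0.14 (adjusted p = 0.000222) from a level close to background, and its other kept probe, detected on no SSC array, was at least 1.12-fold higher.

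Among the kinesins called lower, Kif23, a subunit of the centralspindlin complex of cytokinesis, read 9.01, 9.12 and 9.03 in SSC and 7.92, 8.13 and 8.29 in FGSC. The difference was -0.94 ± 0.11 (adjusted p = 0.000378) with no overlap, and of its 4 kept probes 3 were called lower, with a range from -1.91 to -0.35. Kif15, which helps Kif11 to hold the spindle poles apart, read 7.60, 7.57 and 7.50 in SSC against 6.66, 6.80 and 7.03 in FGSC (-0.73 ± 0.11, adjusted p = 0.00125). Kif18b, a depolymerase of astral microtubules, was called lower at -0.38 ± 0.13 (adjusted p = 0.0436), but 1 of its other probes was called higher, at 0.37. This call was lost without SSC replicate 1 (adjusted p = 0.131), SSC replicate 2 (0.123), FGSC replicate 1 (0.0989), FGSC replicate 2 (0.0634) or FGSC replicate 3 (0.0824), or with median scaling (-0.51, adjusted p = 0.19). Kif11, the motor that separates the spindle poles, showed overlapping groups, with 7.21, 6.88 and 6.74 in SSC and 6.96, 7.36 and 6.96 in FGSC. Its difference was 0.15 ± 0.17 and not called. Kif18a, which aligns chromosomes, and Kif20b, a cytokinesis kinesin, lay close to background with overlapping groups. Kif18a read 4.81, 4.86 and 5.43 in SSC and 5.17, 4.82 and 4.75 in FGSC (-0.12 ± 0.20, not called). Kif20b read 5.08, 4.85 and 5.55 in SSC and 5.18, 5.07 and 5.20 in FGSC (-0.01 ± 0.18, not called). Kif20a and Kif2b were not tested because their probes were detected on no array.

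The mitotic kinases and the chromosomal passenger complex, which corrects attachments and drives cytokinesis, had 4 genes higher, 1 lower and 3 not called of 8 tested. Birc5 (survivin), which anchors the complex at the centromere, had the largest rise of all 58 genes. It read 9.10, 9.05 and 9.11 in SSC and 11.57, 11.74 and 12.29 in FGSC, a difference of 2.78 ± 0.18 (adjusted p = 2.79e-05), or 6.87-fold. Its other kept probes gave 3.16 and 3.52, so every kept probe showed the FGSC arrays well above the SSC arrays. Incenp, the scaffold of the complex, read 8.42, 8.50 and 8.41 in SSC and 9.10, 9.06 and 9.28 in FGSC (0.70 ± 0.09, adjusted p = 0.000542). Of the 3 Aurora kinases, Aurka, which matures the spindle poles, read 8.60, 8.71 and 8.34 in SSC and 9.42, 9.52 and 9.80 in FGSC. It rose by 1.03 ± 0.14 (adjusted p = 0.000789) with no overlap. Aurkc, the form used in meiosis, read 5.05, 4.997 and 4.91 in SSC and 5.92, 5.83 and 6.10 in FGSC, a rise of 0.97 ± 0.10 (adjusted p = 0.000174) from a level near background. Aurkb, the kinase of the complex in mitosis, went the other way, with 6.81, 6.88 and 7.22 in SSC and 6.52, 6.10 and 5.46 in FGSC. Its difference was -0.94 ± 0.27 (adjusted p = 0.0206), with no overlap but the widest spread of FGSC arrays in this role. The Aurkb call was lost without SSC replicate 2 (adjusted p = 0.0504), SSC replicate 3 (0.0686) or FGSC replicate 2 (0.0517), or with median scaling (-1.11, adjusted p = 0.055). Plk1, a kinase of mitotic entry and exit, showed overlapping groups, with 8.90, 9.003 and 8.87 in SSC and 8.95, 9.001 and 9.42 in FGSC (0.20 ± 0.14, not called). Plk4, which starts centriole duplication, gave 4.73, 4.91 and 5.26 in SSC and 4.96, 4.85 and 5.07 in FGSC, and Tpx2, an activator of Aurka, gave 4.91, 4.93 and 5.45 against 5.21, 4.98 and 4.84. Both lay close to background with overlapping groups and differences of -0.01 ± 0.15 and -0.09 ± 0.18.

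The genes of mitotic exit and chromosome structure that were tested both fell. Top2a, the topoisomerase that untangles sister chromatids in dividing cells, read 8.30, 8.40 and 8.26 in SSC and 5.88, 5.99 and 6.02 in FGSC. This was a difference of -2.36 ± 0.08 (adjusted p = 1.92e-06), or a 5.13-fold higher signal in SSC, and its other kept probe gave -1.56. Cdc20, the activator of the APC/C, read 10.33, 10.35 and 10.06 in SSC and 9.17, 9.19 and 9.06 in FGSC. The difference was -1.11 ± 0.10 (adjusted p = 0.000129), and all 4 kept probes of Cdc20 were called lower, from -1.11 to -0.65. Ube2c, the ubiquitin-conjugating partner of the APC/C, was detected on 1 SSC array and 1 FGSC array and was not tested.

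**Figure D2:**
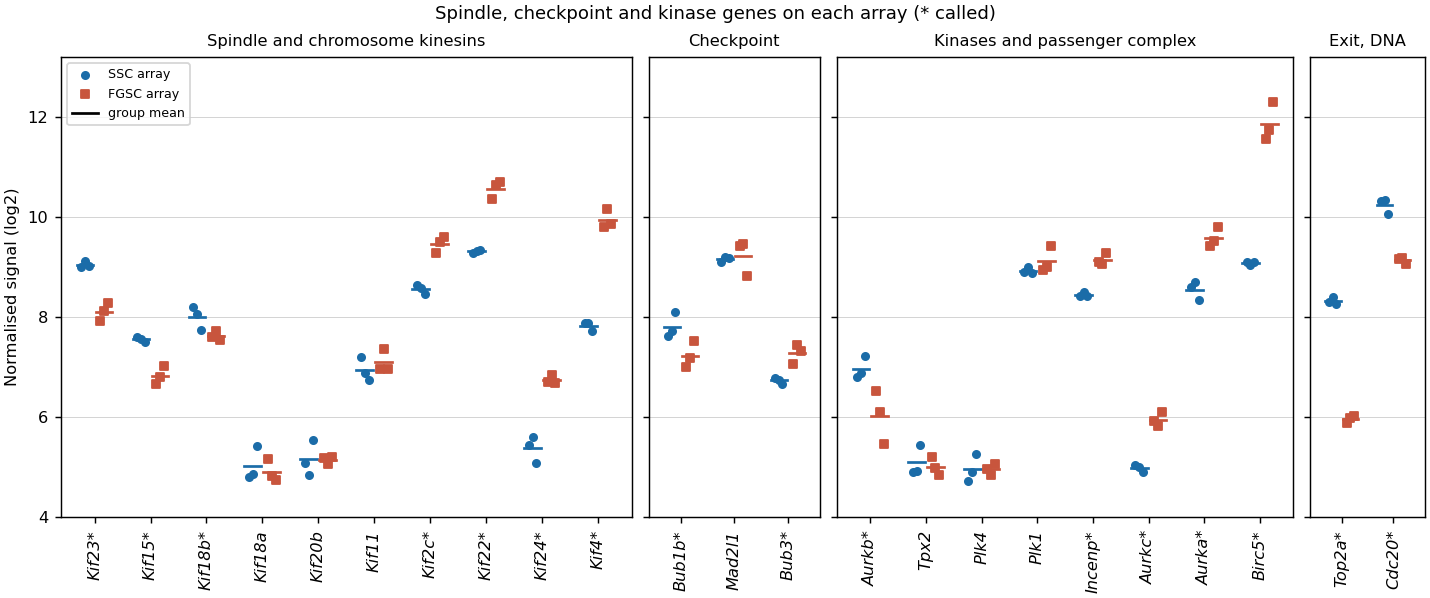
Normalised log2 signal (vertical axis) of each tested spindle kinesin, checkpoint gene, kinase or passenger gene and exit gene on each SSC array (circles) and each FGSC array (squares), with lines at group means and asterisks on called genes. Birc5 and Kif4 lie about 2 to 3 log2 units higher on the FGSC arrays, and Top2a differs by -2.36.

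The checkpoint genes tested split 3 ways. Bub3, which docks checkpoint proteins at kinetochores, read 6.79, 6.75 and 6.67 in SSC and 7.06, 7.45 and 7.33 in FGSC. It rose by 0.54 ± 0.12 (adjusted p = 0.00626), a call lost with median scaling (0.36, adjusted p = 0.238). Bub1b (BubR1), which inhibits Cdc20, read 7.62, 7.72 and 8.10 in SSC and 7.004, 7.18 and 7.52 in FGSC. Its difference was -0.58 ± 0.18 (adjusted p = 0.0269), and the groups came close but did not overlap. Its other kept probe gave -0.57, but the call was lost without SSC replicate 2 (adjusted p = 0.0547), SSC replicate 3 (0.0721), FGSC replicate 1 (0.0792) or FGSC replicate 2 (0.0793). Mad2l1 (Mad2), which also binds Cdc20, read 9.11, 9.20 and 9.19 in SSC and 9.42, 9.46 and 8.82 in FGSC. FGSC replicate 3 lay below the SSC arrays and the other FGSC arrays above them, and the difference of 0.07 ± 0.18 was not called. Without FGSC replicate 3 it was 0.27 and called (adjusted p = 0.0193). The other kept probe of Mad2l1 gave -0.19 ± 0.41 and was not called. On that probe SSC replicate 3, at 6.72, lay above every FGSC array, of which the highest read 6.59. Bub1 was detected on no array, and the 3 probes of Ttk (Mps1) were detected on no SSC array and on at most 2 FGSC arrays, so neither was tested.

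At the outer kinetochore, Ndc80, the subunit that grips the microtubule, read 7.45, 7.34 and 7.29 in SSC and 7.79, 7.78 and 7.33 in FGSC. Its difference of 0.27 ± 0.14 was not called with all arrays, but was 0.43 and called without FGSC replicate 3 (adjusted p = 0.00409). The Ska complex, which keeps the kinetochore on shrinking microtubule ends, had 1 gene higher and 1 lower. Ska3 read 6.48, 6.45 and 6.46 in SSC and 7.44, 7.18 and 7.36 in FGSC (0.86 ± 0.09, adjusted p = 0.00022). Ska2 read 5.78, 6.00 and 5.97 in SSC and 5.62, 5.28 and 5.21 in FGSC (-0.54 ± 0.13, adjusted p = 0.0104). Neither gene had overlapping groups. Ska1 was detected on no array and Nuf2, the partner of Ndc80, on at most 2 FGSC arrays, and neither was tested.

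The CENP genes, most of which encode the inner kinetochore, had 5 higher, 3 lower and 6 not called of 14 tested. The shares were 35.7% higher and 21.4% lower, against 30.9% and 31.5% of all genes. Cenpm, a member of the module of CENP-H, CENP-I, CENP-K and CENP-M, read 6.81, 6.73 and 6.73 in SSC and 8.51, 8.50 and 8.58 in FGSC. The arrays of a group differed little, and the difference was 1.77 ± 0.07 (adjusted p = 3.79e-06), with 1.43 and 1.72 on its other kept probes. Its partner Cenpi was lower, at -0.81 ± 0.14 (adjusted p = 0.00221), while its other probe was detected on no FGSC array and not called. The remaining partners were not called, with 0.40 ± 0.16 for Cenph and -0.04 ± 0.13 for Cenpk, both near background. Cenph was called without SSC replicate 3 (adjusted p = 0.0358) or FGSC replicate 2 (0.0362).

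The histone-fold module of CENP-T, CENP-W, CENP-S and CENP-X was uneven as well. Cenps, which also acts in DNA repair, read 7.45, 7.49 and 7.33 in SSC and 7.97, 8.32 and 8.93 in FGSC (0.99 ± 0.23, adjusted p = 0.0098). Cenpx read 4.96, 4.93 and 5.19 in SSC and 6.00, 6.04 and 6.68 in FGSC (1.22 ± 0.20, adjusted p = 0.00176). The groups of both did not overlap, but the other kept probes of Cenpx gave -0.35, called lower, and 0.34, not called. Cenpt and Cenpw showed overlapping groups and were not called, Cenpt with 9.64, 9.41 and 9.39 in SSC against 9.45, 9.53 and 9.63 in FGSC. Cenpw read 9.41, 9.45 and 9.38 in SSC and 9.58, 9.42 and 9.91 in FGSC. Their differences were 0.05 ± 0.10 and 0.23 ± 0.13.

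Cenpb, a protein that binds a DNA motif of centromere repeats, had the largest fall among the CENP genes. It read 7.94, 8.17 and 8.43 in SSC and 6.34, 6.07 and 5.80 in FGSC, a difference of -2.11 ± 0.18 (adjusted p = 8.32e-05) from its single probe. Cenpn, which reads the centromeric nucleosome, was called lower at -0.32 ± 0.08 (adjusted p = 0.00989). Its other probe gave -0.32 with no call, and Cenpn was not called with median scaling (-0.49, adjusted p = 0.144) or as the mean of its probes (adjusted p = 0.307). Cenpp was called higher at 0.40 ± 0.11 (adjusted p = 0.0206), a call lost without SSC replicate 2 (adjusted p = 0.0544), SSC replicate 3 (0.0538) or FGSC replicate 1 (0.0635), or with median scaling (0.22, adjusted p = 0.488). Cenpq, of the same module, gave 0.29 ± 0.18 and was called without FGSC replicate 3 (0.44, adjusted p = 0.0347). Cenpv, which acts in pericentromeric chromatin and cytokinesis, read 6.70, 6.87 and 6.72 in SSC and 6.73, 6.83 and 6.90 in FGSC (0.06 ± 0.09, not called).

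Cenpa, the histone H3 variant that marks the centromere, rests on an irregular probe. It read 6.64, 4.78 and 5.16 in SSC and 6.97, 6.91 and 7.04 in FGSC, a called difference of 1.44 ± 0.45 (adjusted p = 0.0286). SSC replicate 1 lay close to the FGSC arrays and the other SSC arrays near background. On SSC replicate 2 its raw signal was 96.7 with a detection p-value of 0, although the other probes with that p-value gave signals of at least 105.5 once out-of-order probes were set aside. Its other kept probe was detected on all 3 SSC arrays and no FGSC array, and was called lower (at least 1.07-fold). The call of the brighter probe was lost without SSC replicate 2 (adjusted p = 0.0803), SSC replicate 3 (0.0903), FGSC replicate 1 (0.0691), FGSC replicate 2 (0.0700) or FGSC replicate 3 (0.0501). Cenpa stands among the 5 CENP genes counted as higher, but no direction is drawn for it here. Without irregular probes, 22 of the 58 members were higher and 17 lower. Cenpa is then counted as lower through its other probe (-0.20), which passed the filter through SSC alone. Cenpo, Cenpc1 and Cenpe were detected on no array, Cenpj on 1 SSC array, and the 2 probes of Cenpf on at most 2 SSC arrays and 1 FGSC array.

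**Figure D3:**
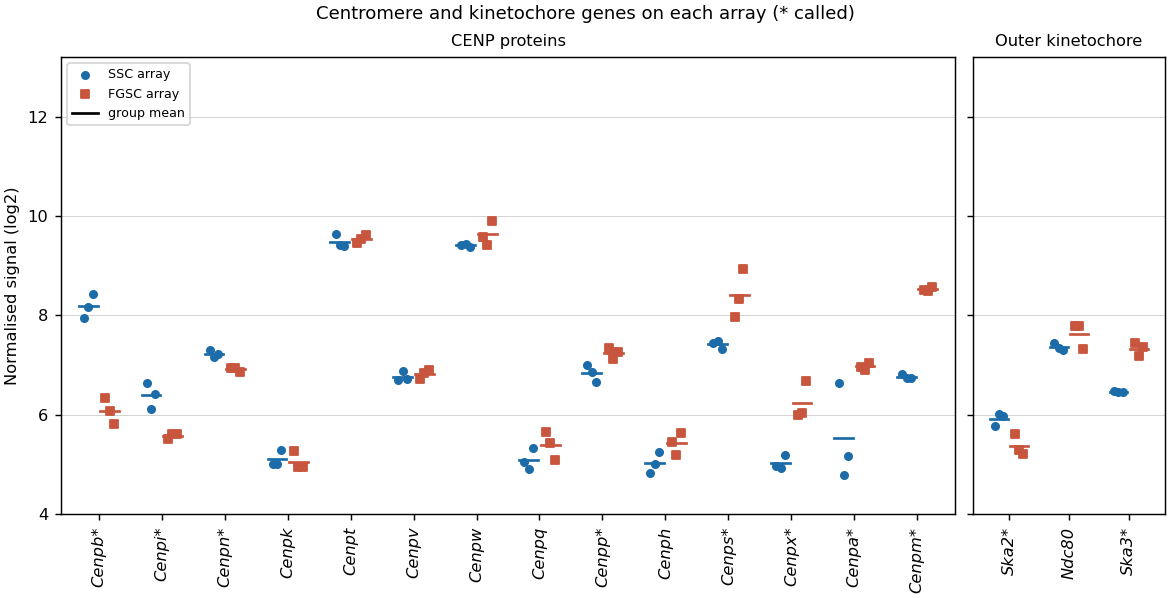
Normalised log2 signal (vertical axis) of each tested CENP and outer kinetochore gene on each SSC array (circles) and each FGSC array (squares), with lines at group means and asterisks on called genes. Cenpb fell by 2.11 and Cenpm rose by 1.77 in FGSC, and the SSC arrays of Cenpa spread from 4.78 to 6.64.

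Kinesins that carry cargo, act in cilia or have other tasks moved in both directions, with 8 higher, 5 lower and 5 not called of 18 tested. That is 44.4% higher and 27.8% lower, against 30.9% and 31.5% of all genes. Kif1a, a motor of synaptic vesicle precursors in axons, had the largest difference of all 58 genes. It read 8.76, 8.86 and 8.69 in SSC and 5.13, 5.11 and 5.38 in FGSC, a fall by 3.56 ± 0.10 on the log2 scale (adjusted p = 1.23e-06). Its other kept probe was detected on no FGSC array and was at least 1.38-fold lower there. Kif16b, which moves early endosomes, was its counterpart, with 5.06, 4.94 and 5.17 in SSC and 7.74, 7.84 and 7.79 in FGSC. It rose by 2.74 ± 0.09 (adjusted p = 1.52e-06) from near background. In the kinesin-2 family, which carries cargo along cilia, the subunits went opposite ways. Kif3a read 9.11, 9.05 and 9.21 in SSC and 10.53, 10.33 and 10.10 in FGSC (1.20 ± 0.12, adjusted p = 0.000212), with 2.01 on its other kept probe. Its partner Kif3b read 5.83, 6.28 and 6.00 in SSC and 5.21, 5.19 and 5.01 in FGSC (-0.90 ± 0.13, adjusted p = 0.00114). Kif3c, an alternative partner, read 6.73, 6.63 and 6.90 in SSC and 4.98, 5.21 and 5.35 in FGSC (-1.58 ± 0.12, adjusted p = 6.06e-05). All kept probes of these 3 genes were called in the direction given, but the other kept probe of Kif3c was detected on no FGSC array and gives a bound of at least 1.64-fold lower.

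Kif2a, a depolymerase of spindle poles and neurons, was counted with the transport kinesins and not with the spindle kinesins. Smaller rises were called for Kif2a (0.71 ± 0.10), Kif13b (0.70 ± 0.10), Kif27 (0.57 ± 0.16), Kif21a (0.55 ± 0.10), Kif9 (0.49 ± 0.09) and Kif17 (0.45 ± 0.12). With median scaling none of these 6 was called higher, and the call of Kif27 was also lost without SSC replicate 1 (adjusted p = 0.0631) or SSC replicate 2 (0.0503). The other kept probe of Kif17 gave -0.16 and that of Kif13b gave -0.03, neither called. Kif5a fell by 0.47 ± 0.11, with differences of 0.01 and 0.02 on its other probes, and the call of Kif5a was lost with the mean of its probes (adjusted p = 0.0813). Kif26a was detected on all 3 SSC arrays and no FGSC array, so it passed the filter through SSC alone, and its signal was at least 1.19-fold lower in FGSC. Kif1b, a motor of mitochondria and vesicles with 7 kept probes, read 7.23, 7.10 and 6.98 in SSC and 6.81, 6.95 and 7.46 in FGSC. The difference was -0.03 ± 0.18 and not called, and of its 7 probes 2 were called lower. The groups also overlapped for Kif5c, with 6.31, 6.05 and 6.36 in SSC and 6.53, 6.41 and 6.11 in FGSC. Kif13a read 4.95, 4.96 and 5.02 against 5.30, 5.10 and 5.10, and Kif1c, Kif5b and Kif13a lay near background and were not called. Kif7 and Kif12 were detected on no array and Kif21b on at most 1, and these were not tested.

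**Figure D4:**
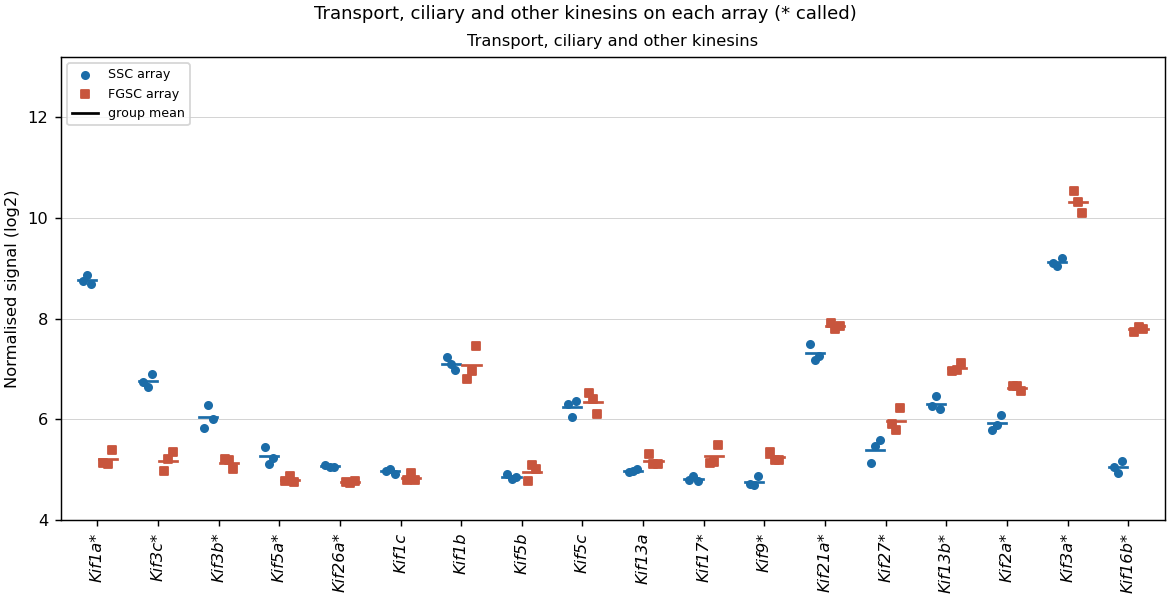
Normalised log2 signal (vertical axis) of each tested transport, ciliary or other kinesin on each SSC array (circles) and each FGSC array (squares), with lines at group means and asterisks on called genes. Kif1a fell by 3.56, Kif16b rose by 2.74, and Kif3a and Kif3b moved in opposite directions.

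Where a gene had several probes, the brightest spoke for it, and the others served as a check. Of 24 genes with at least 2 kept probes, 11 had every probe called in the same direction, namely Birc5, Kif4, Cenpm, Kif3a and Kif24 higher and Top2a, Cdc20, Bub1b, Kif1a, Kif3b and Kif3c lower. Probes of Cenpa, Cenpx and Kif18b were called in opposite directions. The Cenpa probe called lower was detected on no FGSC array and passed the filter through SSC alone, so it is no check either. In Kif1a, Kif3c and Kif24, which are 3 of these 11, a probe was detected on no array of 1 group and passed the filter through the other group alone, so its agreement is no check. Of 16159 kept probes with a gene symbol, 59.3% were called. That is a share of single probes. The share of all genes with every probe called in 1 direction is not given here, so 11 of 24 has no background.

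**Figure D5:**
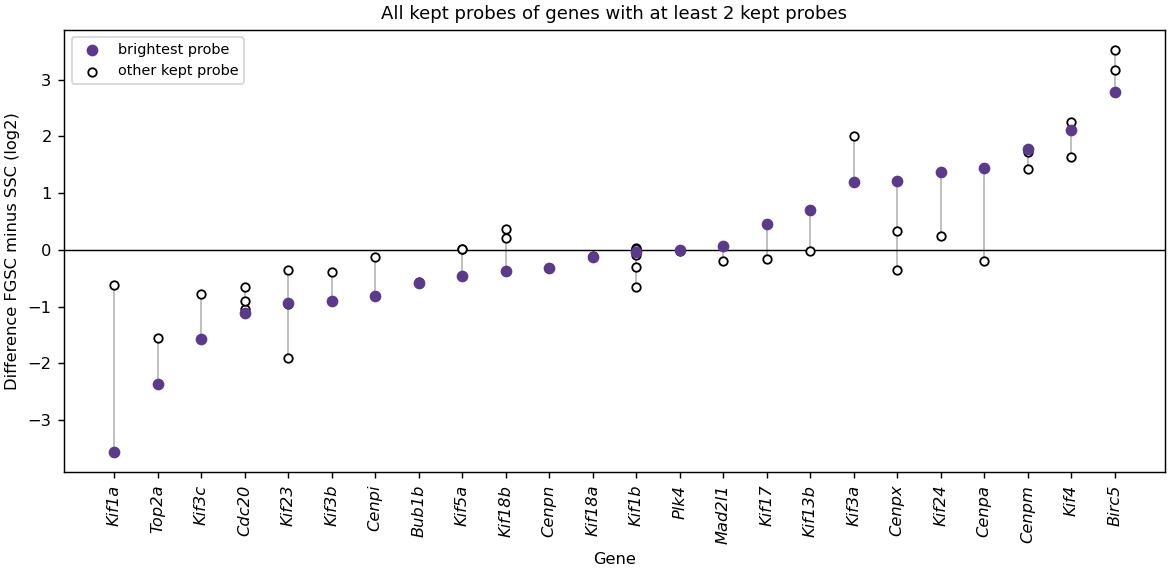
Difference between FGSC and SSC (vertical axis, log2) on every kept probe of the 24 genes with at least 2 kept probes (horizontal axis, ordered by the brightest probe). Filled points are the brightest probe and open points the others, and only some genes, such as Cenpx at 1.22 and -0.35, have points on both sides of 0.

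The promoters of many cell cycle genes carry a cell cycle homology region, written TTTGAA or TTCGAA, and CCAAT boxes upstream of it. These elements are known to repress such genes in resting cells and to drive them before mitosis. Promoters are shown for the 4 spindle, checkpoint or kinase genes with the largest called differences, Birc5, Kif4, Kif24 and Kif22, all higher in FGSC. Those of Top2a and Cdc20, lower in FGSC, were added after their values were seen, to set genes of the same phase and opposite direction side by side. Each runs 5′ to 3′ from 250 bases before the annotated start to 50 bases from it onwards, from RefSeq on GRCm38.p6, and capitals mark matches on either strand to TTTGAA or TTCGAA, to the box CCAAT, or to GGCGGGAA, a site letter string of E2F factors. No 2 matches overlapped in these 6 promoters.
Birc5, chr11:117848987-117849286, forward strand: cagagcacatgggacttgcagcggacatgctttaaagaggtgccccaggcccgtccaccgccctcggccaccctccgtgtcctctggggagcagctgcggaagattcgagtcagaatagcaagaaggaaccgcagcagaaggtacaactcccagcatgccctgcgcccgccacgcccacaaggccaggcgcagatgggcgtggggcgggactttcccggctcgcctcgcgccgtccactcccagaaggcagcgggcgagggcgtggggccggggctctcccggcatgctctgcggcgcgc
Kif4, chrX:100625815-100626114, forward strand: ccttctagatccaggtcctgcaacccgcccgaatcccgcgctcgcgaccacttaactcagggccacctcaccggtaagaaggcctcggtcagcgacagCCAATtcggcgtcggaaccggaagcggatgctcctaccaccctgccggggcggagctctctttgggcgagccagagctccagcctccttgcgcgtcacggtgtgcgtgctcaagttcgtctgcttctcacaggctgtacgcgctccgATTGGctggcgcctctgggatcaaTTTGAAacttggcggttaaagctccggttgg
Kif24, chr4:41464799-41465098, reverse strand: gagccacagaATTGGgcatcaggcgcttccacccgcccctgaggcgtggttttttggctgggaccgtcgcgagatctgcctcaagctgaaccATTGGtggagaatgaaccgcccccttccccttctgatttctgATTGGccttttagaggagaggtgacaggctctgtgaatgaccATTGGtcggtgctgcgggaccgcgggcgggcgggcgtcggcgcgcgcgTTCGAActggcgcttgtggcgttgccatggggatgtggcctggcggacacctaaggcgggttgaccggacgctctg
Kif22, chr7:127042371-127042670, reverse strand: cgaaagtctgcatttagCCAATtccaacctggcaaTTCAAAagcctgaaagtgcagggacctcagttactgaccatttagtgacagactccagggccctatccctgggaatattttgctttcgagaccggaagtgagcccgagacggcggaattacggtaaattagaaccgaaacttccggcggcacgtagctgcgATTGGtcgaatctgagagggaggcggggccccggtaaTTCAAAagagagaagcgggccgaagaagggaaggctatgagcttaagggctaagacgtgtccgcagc
Top2a, chr11:99024140-99024439, reverse strand: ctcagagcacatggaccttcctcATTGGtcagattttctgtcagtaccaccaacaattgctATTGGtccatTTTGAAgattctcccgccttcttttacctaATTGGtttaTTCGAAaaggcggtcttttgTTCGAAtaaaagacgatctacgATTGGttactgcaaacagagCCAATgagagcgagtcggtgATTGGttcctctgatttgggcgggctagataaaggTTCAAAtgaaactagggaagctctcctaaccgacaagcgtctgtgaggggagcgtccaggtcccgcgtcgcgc
Cdc20, chr4:118437294-118437593, reverse strand: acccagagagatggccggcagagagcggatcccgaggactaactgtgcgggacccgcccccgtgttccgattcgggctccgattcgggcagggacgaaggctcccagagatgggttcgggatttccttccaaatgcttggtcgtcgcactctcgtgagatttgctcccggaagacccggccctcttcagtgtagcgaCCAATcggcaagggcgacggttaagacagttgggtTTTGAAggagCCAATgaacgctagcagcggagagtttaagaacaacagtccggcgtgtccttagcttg
The homology letters were found in Kif4, Kif24, Kif22, Top2a and Cdc20, thus in genes that rose and in genes that fell. The match nearest to the start ended 12 bases before it in Kif22, 13 in Cdc20, 18 in Top2a and 21 in Kif24, while the match of Kif4 lay after the start. CCAAT letters occurred 6 times in Top2a, 4 times in Kif24, and 2 times each in Kif4, Kif22 and Cdc20, and the Birc5 window held none of the 4 motifs. Of the 58 genes, 52 had a promoter in the RefSeq table, and 22 (42.3%) held TTTGAA or TTCGAA, against 19.4% of all 27025 promoters of that length. Without the transport kinesins it was 21 of 37 (56.8%), and 16 of these (43.2%) also held CCAAT, against 7.7% of all promoters. The homology letters were found in 10 of 21 genes called higher and in 7 of 14 called lower. CCAAT alone was found in 37.9% of all promoters and GGCGGGAA in 2.2%, against 51.9% and 3.8% of the 52. These matches are descriptions of letters, not of bound sites.

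Further genes of mitosis that were not chosen by the rule, listed by function, gave a picture of the same kind. Of 99 on the array 78 were tested, with 33 higher (42.3%), 21 lower (26.9%) and 24 not called, and a median difference of 0.21. Of all genes, 30.9% were higher and 31.5% lower. By function, 10 of 16 kinetochore genes were higher and 1 lower. Of 12 listed APC/C genes 5 were higher and 1 lower, of 7 condensin genes 3 higher and 2 lower, and of 14 passenger and cohesion genes 5 higher and 5 lower. The list is not complete, and it left out the APC/C subunit Anapc15, which was called higher (0.56 ± 0.07). Spindle and midzone genes had 6 higher and 6 lower of 16, and genes of mitotic entry 4 higher and 6 lower of 13. Spc24, a subunit of the Ndc80 complex, read 6.22, 6.07 and 6.25 in SSC and 8.74, 8.83 and 9.17 in FGSC, a rise of 2.73 ± 0.13 (adjusted p = 6.82e-06). The checkpoint gene Mad1l1, which recruits Mad2, rose by 2.40 ± 0.17, and Mybl2, a transcription factor of cell cycle promoters, by 1.93 ± 0.09. Fzr1 (Cdh1), the APC/C activator that takes over from Cdc20 and keeps oocytes arrested, rose by 1.85 ± 0.14. Cdc25b, a phosphatase that opens mitosis and oocyte meiosis, rose by 1.76 ± 0.12. On their brightest probes the 2 APC/C activators thus differed in opposite directions, with all 3 FGSC arrays above all 3 SSC arrays for Fzr1 and below them for Cdc20. For these further genes only the brightest probe is reported, although some, such as Fzr1 with 3, have several kept probes.

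Ncapd2, a condensin subunit, read 8.63, 8.10 and 8.61 in SSC and 5.32, 5.28 and 5.14 in FGSC, a difference of -3.20 ± 0.16 (adjusted p = 7.94e-06). Pds5b, a cohesin regulator, differed by -2.10 ± 0.11, and Tacc1, a centrosomal protein, by -2.03 ± 0.14. The stress-responsive kinase Plk3 differed by -1.46 ± 0.18, and Ckap5, a microtubule polymerase, by -1.44 ± 0.34. Uncalled genes with the highest levels were Anapc13 (0.26 ± 0.16), Anapc16 (0.22 ± 0.65) and Ncaph (0.05 ± 0.10), and Anapc16 read 10.23 and 9.99 on FGSC replicates 1 and 2 but 7.67 on replicate 3. Ckap5 was also lowest there, at 6.37 against 7.68 and 7.57. On FGSC replicate 3, Cdk1 read 5.90 against 9.43 and 9.15, and Nusap1 5.98 against 8.28 and 8.01. Zw10 read 5.77 there against 7.866 and 7.855, Anapc4 6.77 against 8.83 and 8.87, and Anapc2 6.23 against 7.365 and 7.372. Cdk1, Nusap1, Zw10, Anapc4 and Anapc2 were not called. With such a spread of the FGSC arrays, a missing call does not show equal levels.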

How the data were processed

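The data are 3 SSC and 3 FGSC samples on Illumina Mouse WG-6 v2.0 arrays. The authors deposited mean bead intensity per probe, not normalised between arrays, and a detection p-value per probe, per the file headers. A deposited table of the authors' processed intensity values, whose scale and centring are not stated, had a median of 19.9 in each column and served as an alternative. The submitters' processing notes name lumi, with no version or role.

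Background was corrected by normexp with the detection p-values and an offset of 16, followed by quantile normalization and log2 (limma 3.58.1, R 4.3.3), a procedure tested on simulated data. The filter kept probes detected at 0.05 on 3 or more of 6 arrays (18860 of 45281). Genes were named from the platform annotation, updated through RefSeq: 34885 probes had 1 symbol, 18 had several and 10378 were unnamed. The brightest kept probe by the mean of all 6 arrays stood for a gene. FGSC and SSC were compared with limma's lmFit and eBayes without covariates, and adjusted over 10628 genes by Benjamini-Hochberg, with calls at an adjusted p under 0.05. The number of arrays limits the precision. The labels state no pairing by replicate number, and none was used. Deviations of same-numbered arrays correlated at -0.20, -0.05 and -0.22. With 3 arrays per group these values cannot exclude a shared handling of same-numbered arrays.

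Array values are given, per role, for up to 5 called genes with the largest difference and up to 3 uncalled genes with the highest level, and for all tested checkpoint, kinase, passenger and outer kinetochore genes. Of the other mitosis genes, up to 5 called each way and 3 uncalled are named. The members and lists were chosen with earlier results of these data known. Alternatives covered normalization, background, offset, detection filter, probe choice, irregular probes (a detection p-value over 0.005 from the running median of 51 probes ordered by signal; 207 probes), single replicates, a replicate block and the variance prior. Figures were drawn with matplotlib 3.10.9.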

Additional observations from a re-analysis of the deposited data

How the results depend on the processing

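Of 39 called mitotic genes, 23 kept their call and direction in every alternative that gave a value, and of 19 uncalled genes 15 were never called. Median scaling gave 14 members higher, with 3 CENP genes, 0 checkpoint genes and 2 transport kinesins higher and 0 kinase or passenger genes lower, 18 other mitosis genes higher, 1929 genes of the whole array higher and a members' median of 0.0509. Detection under 0.01 on all 6 arrays gave 4391 genes called and 1931 lower, with 5 transport kinesins higher and 1 lower. Fewer genes were tested there, and the median was 0.25 for members and 0.0986 for all genes. Of 40 members tested, 19 were higher and 12 lower, so 77.5% were called against 63.7% of all genes. Without a detection filter 49.3% of members were called, against 34.2% of all genes. The members' median was 0.0945 without background correction, 0.0592 without a detection filter, where 0 checkpoint genes were lower, and 0.0772 with the second brightest probe, where 3 CENP genes were higher. With the replicate number as a block, 24 members were higher and 15 lower, 0 kinase or passenger genes were lower, and 5926 genes were called over the whole array. The labels do not say that the numbers pair these samples.

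Some differences changed sign. With the second brightest probe, Cenpa was -0.20 (also without irregular probes), Cenpx -0.35, Kif13b -0.0287, Kif17 -0.16, Kif18b 0.37 and Kif5a 0.0138. Kif17 was -0.30 with median scaling and -0.21 in the deposited processed values, and Kif18b was 0.069 as the mean of its probes. The cause was not tested. Leaving out each replicate in turn gave 5777 to 7000 genes called (2870 to 3457 higher, 2898 to 3543 lower), 20 to 25 members higher and 13 to 15 lower, and a median of 0.14 to 0.22. By role, these ranges were 3 to 5 CENP genes higher, 1 to 2 checkpoint genes higher and 0 to 1 lower, 0 to 1 kinase or passenger genes lower, 1 to 2 outer kinetochore genes higher, 2 to 3 spindle kinesins lower and 7 to 8 transport kinesins higher. For the other mitosis genes they were 25 to 36 higher and 17 to 23 lower. Signals near background limit what can be said of dim genes, since 15 of the 73 genes on the array were not tested.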
